A study of Mus musculus with 12 samples.

Results

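The genes Kit, Flt3, Cd34, Slamf1, Cd48, Procr and Ly6a encode the surface proteins by which mouse hematopoietic stem and progenitor cells are sorted. Their open chromatin was described here in ATAC-seq libraries of stem and progenitor cells with and without an enhancer of the transcription factor gene Spi1. Members were the regions of the count table that overlapped one of the 7 genes or the 20 kb on either side of it (GRCm38, GENCODE M21), and 78 of 121336 regions met this rule. Flt3 had 20 of them, Kit 18, Cd34 and Slamf1 10 each, Procr 9, Cd48 8 and Ly6a 3. Outside the gene body lay 8 of the Procr regions, 7 of Flt3, 6 of Cd34, 4 of Cd48 and 3 each of Kit, Slamf1 and Ly6a.

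Kit (c-Kit) and Flt3 are class III receptor tyrosine kinases, bound by the ligands Kitl and Flt3l, and carry growth and survival signals in stem cells and early progenitors. Slamf1 (CD150) and Cd48 belong to the SLAM family of cell contact receptors, whose combination separates stem cells from multipotent progenitors. Cd34 is a sialomucin of progenitors and endothelium, Procr (EPCR) is the receptor of protein C and marks stem cells, and Ly6a is Sca-1, a lipid-anchored protein of the Ly6 family. Regulatory regions of such genes lie both at the transcription start and in introns or flanking DNA, and ATAC-seq reads them as stretches of DNA that a transposase can cut.

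The bone marrow came from C57BL/6 littermates of 8 to 12 weeks, either wild type (WT) or of the genotype UREd/d, called URE here. URE mice lack an upstream regulatory element of the PU.1 gene Spi1, and the study describes them as preleukemic with lowered PU.1. LSK were sorted as Lin-Sca-1+c-Kit+ cells and GMP, the granulocyte-monocyte progenitors, as Lin-Sca-1-c-Kit+Cd16/32+ cells, so that WT-LSK and WT-GMP, and likewise URE-LSK and URE-GMP, had 3 libraries each, from 3 mice per genotype and cell type. Both cell types were selected for c-Kit protein, and Sca-1 protein divided them, so that a difference between LSK and GMP at Kit or Ly6a is not independent of the sort.

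The 12 libraries held 23072701 to 62204826 counts in regions. Between 12 and 17 kb upstream of the Spi1 start codon, where the deleted element lies, 5 regions summed to 51.8 to 59.0 CPM (counts scaled to a common library size after TMM) in WT-LSK and 71.3 to 86.9 CPM in WT-GMP, but to 4.38 to 4.81 CPM in URE-LSK and 4.17 to 7.16 CPM in URE-GMP. The promoter regions of 6 of the 7 GMP genes that had one (Mpo, Elane, Prtn3, Ctsg, Ms4a3 and Cebpe) summed to 28.8 to 35.2 CPM in WT-LSK and 202 to 259 CPM in WT-GMP, and all 6 were more open in WT-GMP. In bulk libraries a shift in the mix of cells and a change in each cell cannot be told apart.

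Member regions were searched on either strand for the letters of a PU.1 motif, GAGGAAGT. All regions with a match are named in the text, some of them only because they held it. These letters stood in 8 of the 78 member regions (10.3%) and in 12706 of all 121336 regions (10.5%). The stretches around 6 of these matches follow, from GRCm38 and 5′ to 3′ on the strand that reads GAGGAAGT, with the match in capitals. The first 4 lie in regions that were less open in URE-LSK, and the last 2 in regions that were not called there.
Flt3 +37.2 kb (chr5:147363192-147363251, plus strand): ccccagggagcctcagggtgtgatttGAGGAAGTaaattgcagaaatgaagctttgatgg
Flt3 +12.2 kb (chr5:147388239-147388298, minus strand): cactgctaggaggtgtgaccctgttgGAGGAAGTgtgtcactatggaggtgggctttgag
Flt3 -10.3 kb (chr5:147410816-147410875, minus strand): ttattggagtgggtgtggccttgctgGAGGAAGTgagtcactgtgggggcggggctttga
Slamf1 +18.9 kb (chr1:171785977-171786036, minus strand): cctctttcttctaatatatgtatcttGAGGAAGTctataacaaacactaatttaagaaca
Slamf1 -5.0 kb (chr1:171762259-171762318, plus strand): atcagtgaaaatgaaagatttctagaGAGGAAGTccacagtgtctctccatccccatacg
Procr -8.1 kb (chr2:155743499-155743558, plus strand): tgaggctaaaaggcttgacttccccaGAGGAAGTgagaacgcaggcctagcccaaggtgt
Offsets are in kb from the gene's start to the middle of the region, positive downstream. Among regions within 10% of the same width, the share with the letters was 11.2% for the Flt3 +37.2 kb region and 13.9% for the Procr -8.1 kb region. The stretches at Flt3 -10.3 kb and +12.2 kb were identical at 40 of 60 bases, and 87.6% and 56.8% of those regions were repeat-masked in the RefSeq genome.

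The CEBP letters TTGCNNAA are shown for 2 Kit regions that were more open in URE-GMP, here on the plus strand with each match on either strand in capitals. They were present in 12 of 78 members (15.4%) and in 20.5% of all regions.
Kit -7.7 kb (chr5:75567138-75567238, plus strand): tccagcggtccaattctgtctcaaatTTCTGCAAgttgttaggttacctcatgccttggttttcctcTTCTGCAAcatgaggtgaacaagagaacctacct
Kit +40.9 kb (chr5:75615705-75615844, plus strand): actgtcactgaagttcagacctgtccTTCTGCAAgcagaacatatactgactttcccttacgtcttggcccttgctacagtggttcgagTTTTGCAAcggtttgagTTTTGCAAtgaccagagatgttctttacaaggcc
The central 120 bases of 2 further regions are shown because these regions lost much of their signal in URE-LSK while the whole region held none of the 5 letter strings searched on both strands. Beside those of PU.1 and CEBP these were AACCACA for RUNX factors, AGATAA for GATA factors, and CCGGAAGT for other ETS factors (its last letters are those of the PU.1 string). Only exact strings were searched, so a site that differs by a single base would be missed. Both stretches below hold letters a single base away from the PU.1 string, and the Slamf1 stretch also from the GATA string.
Flt3 +60.7 kb (chr5:147339713-147339832, plus strand): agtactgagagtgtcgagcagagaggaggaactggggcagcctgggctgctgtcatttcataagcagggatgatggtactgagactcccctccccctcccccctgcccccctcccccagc
Slamf1 +50.1 kb (chr1:171817144-171817263, plus strand): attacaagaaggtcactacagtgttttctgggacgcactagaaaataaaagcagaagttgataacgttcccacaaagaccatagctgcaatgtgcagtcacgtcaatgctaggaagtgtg

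Regions were tested with edgeR's quasi-likelihood test, p-values were adjusted by Benjamini-Hochberg (BH) across the 121336 regions of the table, and the word called is kept for an adjusted p below 0.05 together with a log2 fold change beyond 1 in size. In LSK, 30 of the 78 member regions were called between URE and WT, 11 more and 19 less open in URE, which is 38.5% against 37.5% of all regions. By direction the members stood at 14.1% higher against 13.6% of all regions and 24.4% lower against 23.9%. In GMP, 28 were called (35.9% against 39.7% of all regions), of which 5 were more open (6.41% against 15.6%) and 23 less open (29.5% against 24.1%). The median log2 fold change of the members was -0.03 in LSK and -0.32 in GMP, beside 0.14 and 0.06 over all regions. Fold changes refer to the TMM scaling. With TMM factors from promoter regions the median of all regions in LSK moved to -0.04 and the members split into 7 higher and 21 lower. Of these member calls 75% were lower, against 70.6% of the calls over all regions. With intensity-dependent (loess) offsets the split was 15 higher and 15 lower in LSK and 9 higher and 20 lower in GMP. The lower share of the member calls was then 50% in LSK and 69.0% in GMP. Over all regions it was 47.3% and 45.3%.

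**Figure D1:**
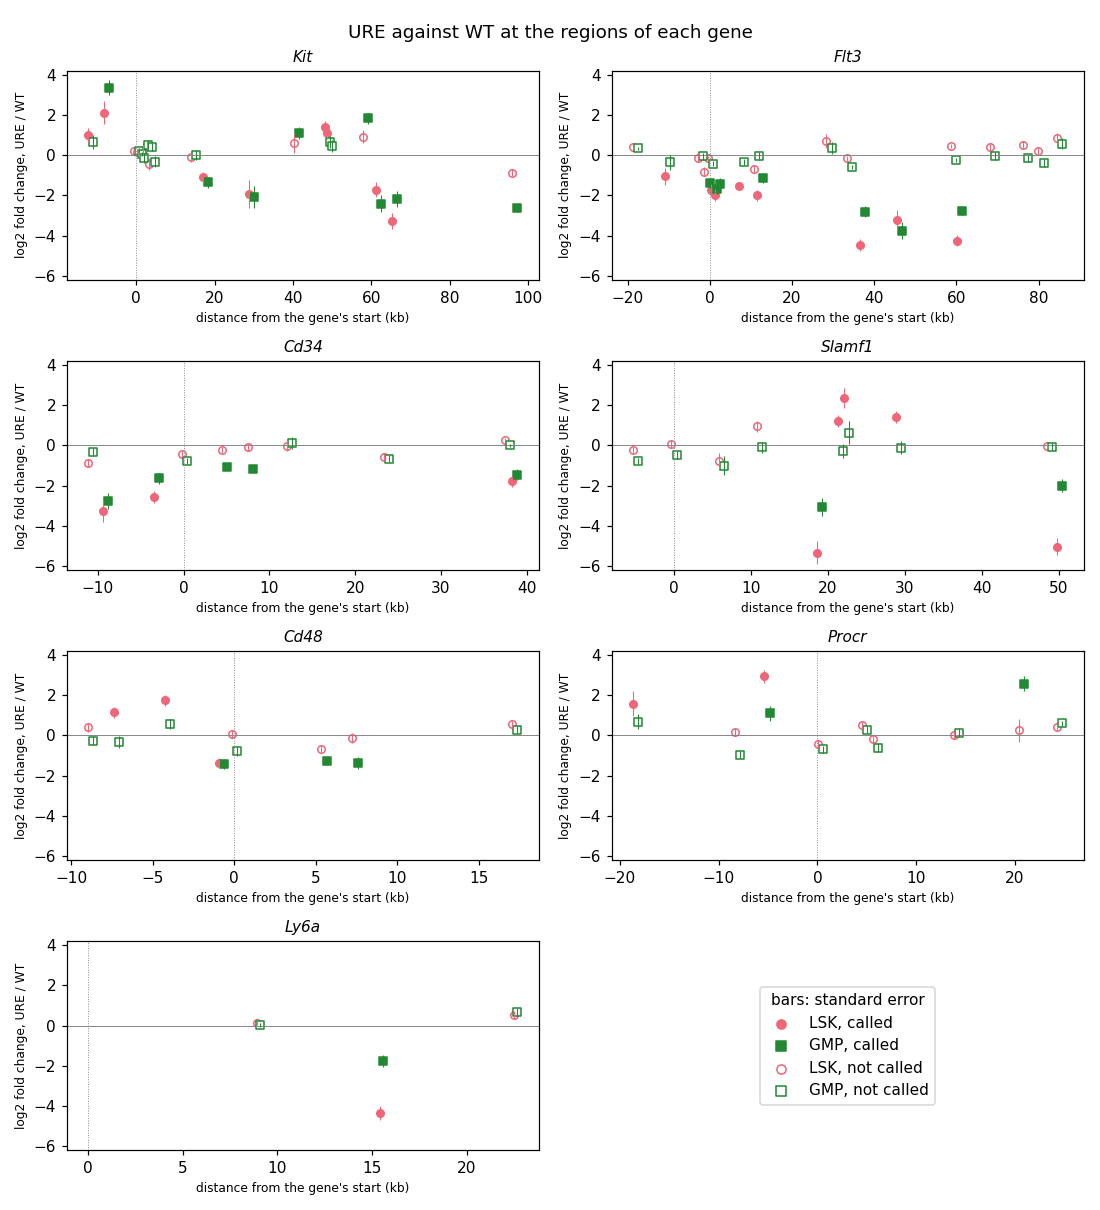
Log2 fold change of URE over WT (y axis) at each region against its distance from the gene's start in kb (x axis), 1 panel per gene, with circles for LSK and squares for GMP drawn slightly apart, filled where called, and standard errors as bars. No main promoter region (distance near 0) is filled, and at Flt3 all filled symbols lie below 0.

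Regions called in both cell types went the same way. Of the 78 regions, 17 were less open in URE in both LSK and GMP (21.8% against 18.7% of all regions), 2 were more open in both (Kit -7.7 kb and Procr -5.1 kb, 2.56% against 8.45%), and 0 were called in opposite directions (against 0.0717% lower then higher and 0.0882% higher then lower in LSK and GMP). By the call in LSK alone 9 were more open (11.5% against 5.06%) and 2 less open (2.56% against 5.11%), and by the call in GMP alone 3 were more open (3.85% against 7.12%) and 6 less open (7.69% against 5.22%). Whether the difference itself changed was tested by the interaction, the log2 fold change in GMP minus that in LSK. It was called at 15 members (19.2% against 14% of all regions), 6 positive (7.69% against 8.96%) and 9 negative (11.5% against 5.03%). The number of negative calls rested on single libraries. Without WT-GMP replicate 3 there were 5 positive and 1 negative, without WT-LSK replicate 2 there were 6 and 3, without WT-LSK replicate 1 there were 6 and 4, and without URE-LSK replicate 1 there were 5 and 4. Leaving out WT-LSK replicate 3, URE-GMP replicate 1 or URE-GMP replicate 2 gave 6 and 5 each.

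**Figure D2:**
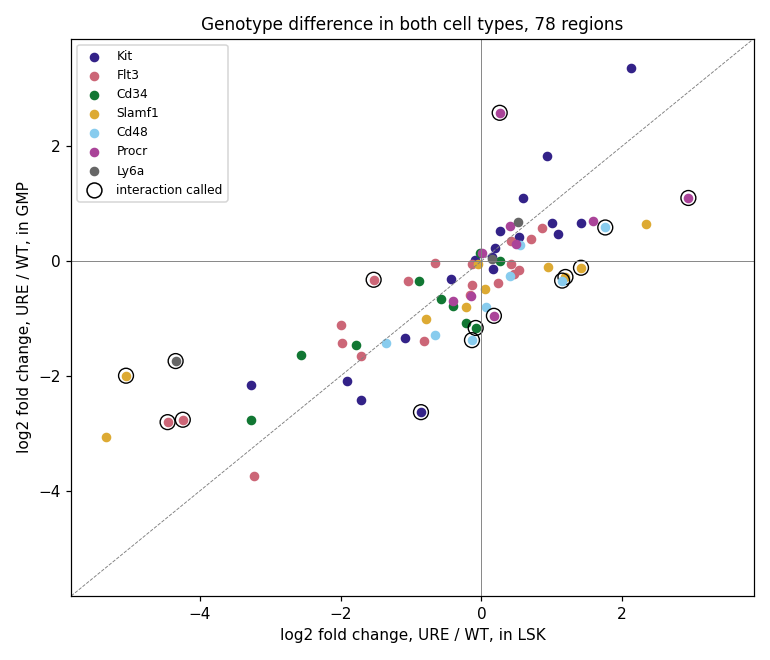
Log2 fold change of URE over WT in GMP (y axis) against that in LSK (x axis) for the 78 regions, coloured by gene, with the line of equal values dashed and regions with a called interaction ringed. The lower left holds 17 regions less open in both cell types, and no called pair of values lies in opposite directions.

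The transcription starts themselves were called less often. Kit and Flt3 had 2 regions within 500 bp of one of their own starts, Cd34, Slamf1, Cd48 and Procr had 1 each, and none of the regions used here lay at the start of Ly6a. Of these 8 promoter regions 0 were called between URE and WT in LSK by edgeR and 0 by DESeq2, while 3 had an unadjusted p under 0.05 in edgeR and 2 an adjusted p under 0.05, namely Cd34 and the upstream Flt3 region. In GMP 6 had an adjusted p under 0.05, and the median log2 fold change of the 8, -0.59, lay below the -0.28 of the 63 member regions outside any promoter. Of the 8, 1 was called there, the upstream Flt3 region at -0.7 kb, which held 5.65, 3.69 and 4.31 CPM in the 3 WT-GMP libraries, against 1.98, 1.89 and 1.28 CPM for URE-GMP (log2 fold change -1.39 ± 0.23, SE, adjusted p = 9.72e-05). All promoter regions of the table were called at 11.5% in LSK and 13.0% in GMP, and all other regions at 42.4% and 44.7%, while the 63 member regions outside any promoter were called at 42.9% and 38.1%. The remaining 7 member regions lay at promoters of other genes. Of these 3 were called in LSK and 3 in GMP (42.9% each), all less open in URE.

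Among the main promoter regions, those with the most counts for each gene, the level per kb of region in WT-LSK was highest at Flt3 with 66.1 CPM per kb, followed by Kit with 56.7 and Cd34 with 45.4, and then by Cd48 with 12.8, Slamf1 with 11.1 and Procr with 10.3 CPM per kb. Flt3 overlapped with Kit over the 3 libraries, Kit stood above Cd34 in all of them, and the last 3 overlapped with one another. Kit stood at 37.3, 39.1 and 38.0 CPM in the WT-LSK libraries, against 45.2, 45.1 and 40.97 CPM for URE-LSK, and at 36.98, 37.5 and 43.9 CPM in the WT-GMP libraries, against 48.2, 43.9 and 46.1 CPM for URE-GMP. The genotypes did not overlap in LSK and nearly met at 43.9 CPM in GMP, and the log2 fold changes were small, 0.20 ± 0.08 (SE, adjusted p = 0.0546) and 0.22 ± 0.08 (SE, adjusted p = 0.0304). With GC content offsets both values were negative (-0.34 and -0.11).

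At the main Flt3 promoter region the libraries held 57.3, 61.6 and 47.3 CPM in WT-LSK against 58.2, 48.8 and 44.2 for URE-LSK, then 40.9, 32.8 and 39.5 in WT-GMP against 28.1, 28.5 and 27.8 for URE-GMP. The genotypes overlapped in LSK and not in GMP, where the log2 fold change was -0.42 ± 0.12 (SE, adjusted p = 0.00547), below the size required for a call. Cd34 stood at 24.8, 18.7, 22.4 and 13.1 CPM on average (WT then URE in LSK, WT then URE in GMP), with log2 fold changes of -0.41 ± 0.15 in LSK and -0.79 ± 0.15 in GMP (SE, adjusted p = 0.0303 and 0.000329). In GMP the Cd48 and Procr promoters had log2 fold changes of -0.79 and -0.70 (adjusted p = 0.00351 and 0.00589), and Slamf1 one of -0.49 (adjusted p = 0.05001). The Cd48 region also covers a start of A630035G10Rik, so its counts cannot be assigned to 1 of the 2 genes.

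**Figure D3:**
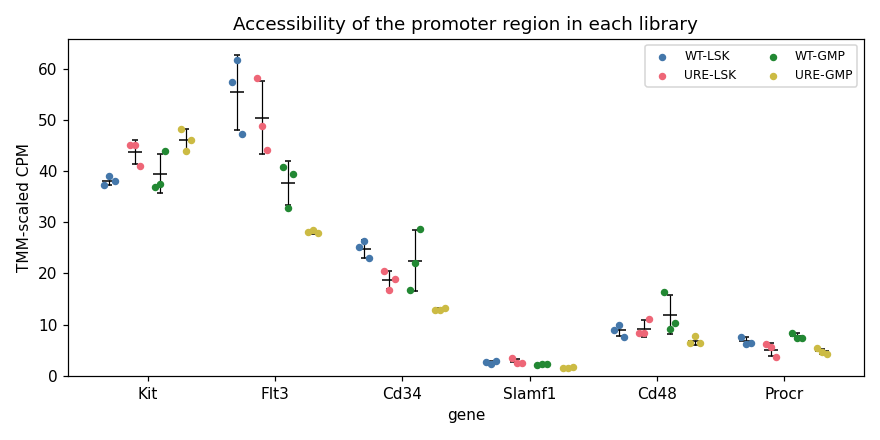
TMM-scaled CPM (y axis, from 0) of the main promoter region of each gene (x axis) in the 12 libraries, coloured by group, with the mean and SD of 3 libraries as a bar. URE-GMP lies below WT-GMP at Flt3 (28.1 against 37.7 CPM on average) and Cd34 (13.1 against 22.4 CPM), and Kit differs little between groups.

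Kit, the receptor of stem cell factor, had regions of both directions. In LSK 4 of its 18 regions were more and 4 less open in URE (5 and 1 with loess offsets, 2 and 5 with promoter TMM factors), and in GMP 3 were more and 5 less open (5 and 4 with loess offsets), all outside the 2 promoter regions. The shares more and less open were 22.2% and 22.2% in LSK, against 13.6% and 23.9% of all regions. In GMP they were 16.7% and 27.8%, against 15.6% and 24.1%. The intergenic region at -7.7 kb (chr5:75567021-75567337), which carries 2 of the CEBP matches printed above, held 0.0787, 0.0816 and 0.0804 CPM in WT-LSK against 0.214, 0.391 and 0.470 for URE-LSK, then 0.586, 0.336 and 0.254 in WT-GMP against 5.06, 4.01 and 2.45 for URE-GMP. It was near the limit of 3 counts in WT-LSK (2 to 4 counts per library) and was most open in URE-GMP, without overlap of the genotypes in either cell type. Its log2 fold change was 3.37 ± 0.37 in GMP (SE, adjusted p = 1.88e-06). In LSK the summed counts, 9 in WT and 45 in URE, gave a ratio of 4.51 (exact 95% interval 2.18 to 10.5, counting error only, adjusted p = 0.00378).

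The intronic region at +40.9 kb (chr5:75615641-75616005), with 3 CEBP matches, was the Kit region with the smallest p between the WT cell types. It held 0.341, 0.530 and 0.322 CPM in WT-LSK against 7.24, 5.94 and 2.42 CPM for WT-GMP, a log2 fold change of 3.74 ± 0.41 (SE, adjusted p = 2.03e-06). URE-GMP stood higher again, at 11.3, 11.5 and 10.3 CPM, with a log2 fold change against WT-GMP of 1.10 ± 0.31 (SE, adjusted p = 0.00610), which was 0.77 without WT-GMP replicate 3. The intronic region at +58.6 kb completes the Kit regions that were more open in URE-GMP, with 1.81 CPM in WT-GMP against 6.34 CPM for URE-GMP (log2 fold change 1.83 ± 0.27, SE, adjusted p = 2.65e-05).

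Further downstream Kit had losses. Beyond the 3′ end of the gene, at +96.6 kb (chr5:75671123-75671857), the libraries held 5.80, 5.59 and 5.75 CPM in WT-LSK against 3.26, 2.85 and 3.33 for URE-LSK, then 15.1, 13.1 and 13.0 in WT-GMP against 2.69, 2.10 and 1.84 for URE-GMP. WT-GMP was the highest group and URE-GMP the lowest, with a log2 fold change of -2.63 ± 0.18 in GMP (SE, adjusted p = 2.54e-08) beside -0.86 ± 0.17 in LSK (SE, adjusted p = 0.000504). The interaction was -1.77 ± 0.24 (SE, adjusted p = 0.000211). A coding exon at +66.0 kb dropped in both cell types, from 2.11 to 0.214 CPM in LSK (-3.27 ± 0.42 log2, SE, adjusted p = 5.61e-06), and for GMP from 1.38 to 0.305 CPM. The intronic region at +48.8 kb was more open in URE-LSK, 2.76, 2.01 and 2.84 CPM against 0.604, 1.18 and 1.09 CPM in WT-LSK (1.42 ± 0.30 log2, SE, adjusted p = 0.000871). Summed over all 18 regions, Kit differed by less than these single regions, at 104 to 106 CPM in WT-LSK and 108 to 120 CPM in URE-LSK.

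Flt3, the other receptor tyrosine kinase and a marker of multipotent and lymphoid-primed progenitors, lost signal at 8 of its 20 regions in LSK (40.0% against 23.9% of all regions) and at 7 in GMP (35.0% against 24.1%). In URE 0 were more open in either cell type (13.6% and 15.6% of all regions). With loess offsets 1 was more and 7 were less open in LSK. The region at +37.2 kb (chr5:147363060-147363469), in an intron and with the first of the PU.1 matches above, held 15.3, 17.5 and 14.6 CPM in WT-LSK and 0.4997, 1.005 and 0.662 CPM in URE-LSK, and 13.1, 13.4 and 13.9 CPM in WT-GMP against 1.44, 3.02 and 1.24 CPM for URE-GMP. No URE library reached a WT library. The URE mean was 22.0-fold lower in LSK and 6.98-fold lower in GMP, with log2 fold changes of -4.46 ± 0.31 (SE, adjusted p = 1.63e-08) and -2.80 ± 0.28 (SE, adjusted p = 6.34e-07).

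Another intronic region of Flt3, at +60.7 kb (chr5:147339540-147340006), went nearly as low without an exact match to any of the 5 letter strings. Its libraries held 10.3, 12.6 and 8.93 CPM in WT-LSK against 0.619, 0.586 and 0.470 for URE-LSK, then 16.0, 18.9 and 18.1 in WT-GMP against 2.69, 3.38 and 1.70 for URE-GMP. The groups of each cell type were far apart, at -4.24 ± 0.26 log2 in LSK (SE, adjusted p = 5.96e-09) beside -2.76 ± 0.22 log2 in GMP (SE, adjusted p = 1.07e-07). At both regions the difference was smaller in GMP, with interactions of 1.66 ± 0.40 (SE, adjusted p = 0.0105) and 1.48 ± 0.33 (SE, adjusted p = 0.00659).

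Nearer the start, an intronic region of Flt3 was less open in URE-LSK and not called in GMP. The wide region at +7.6 kb (chr5:147392512-147393248) held 28.6, 27.9 and 20.3 CPM in WT-LSK and 6.50, 10.2 and 9.89 CPM in URE-LSK, but 32.5, 27.3 and 26.9 CPM in WT-GMP against 20.02, 24.6 and 24.3 CPM for URE-GMP. URE-LSK was the one group apart from the rest, at -1.53 ± 0.17 log2 (SE, adjusted p = 1.48e-06), against -0.33 ± 0.16 in GMP (SE, adjusted p = 0.0956), with an interaction of 1.21 ± 0.24 (SE, adjusted p = 0.00267). The neighbouring region at +11.4 kb was 7.14 CPM in WT-LSK against 25.4 CPM for WT-GMP (1.83 ± 0.19 log2, SE, adjusted p = 1.09e-06), and the genotypes overlapped in GMP (-0.03 log2). The PU.1 match at +12.2 kb went with -2.00 log2 in LSK and -1.12 in GMP (adjusted p = 8.54e-06 and 0.00114). The match at -10.3 kb went with -1.04 in LSK (adjusted p = 0.0474), where the genotypes overlapped and the call was lost without any one of 7 libraries (WT-LSK replicates 1 and 3, URE-LSK replicates 1 and 2, and each of the 3 URE-GMP replicates, adjusted p from 0.0502 to 0.181).

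Slamf1 (CD150), positive on long-term stem cells, had regions that rose and regions that fell in LSK. The region at +50.1 kb (chr1:171817042-171817366), intergenic and beyond the 3′ end, held 3.73, 4.90 and 6.76 CPM in WT-LSK and 0.167, 0.140 and 0.150 CPM in URE-LSK, and 2.55, 3.36 and 3.46 CPM in WT-GMP against 0.517, 1.30 and 0.485 CPM for URE-GMP. The URE-LSK libraries had 5 to 7 counts each. The mean was 33.1-fold lower in URE-LSK (-5.05 ± 0.42 log2, SE, adjusted p = 7.59e-08) and 3.99-fold lower in URE-GMP (-2.00 ± 0.34 log2, SE, adjusted p = 9.37e-05), giving an interaction of 3.05 ± 0.56 (SE, adjusted p = 0.00156). The intronic region at +18.9 kb, with a PU.1 match, held 48 to 95 counts per WT-LSK library and 1 to 3 per URE-LSK library, a ratio of 42.8 (WT over URE, summed counts 193 and 5, exact 95% interval 18.0 to 133, counting error only, adjusted p = 5.96e-07). In GMP it stood at 0.879, 1.22 and 1.48 CPM in WT and 0.0431, 0.226 and 0.145 CPM in URE, a ratio of 8.61 (summed counts 143 and 21, exact 95% interval 5.42 to 14.3, adjusted p = 2.35e-05).

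Elsewhere in its introns Slamf1 was more open in URE-LSK. At +22.4 kb (chr1:171789437-171789717) the libraries held 0.604, 0.775 and 1.23 CPM in WT-LSK and 5.26, 4.02 and 4.23 CPM in URE-LSK, a log2 fold change of 2.34 ± 0.49 (SE, adjusted p = 0.000729) without overlap. The GMP libraries were lower and overlapped, at 0.293, 0.273 and 0.668 CPM in WT and 0.710, 0.121 and 1.21 CPM in URE, so that the value of 0.64 ± 0.58 (SE) had an adjusted p of 0.351, and was 1.17 (adjusted p = 0.0251) without URE-GMP replicate 2. The regions at +21.6 and +29.2 kb, named because their interaction was called, were also more open in URE-LSK, at 1.19 and 1.42 log2 (adjusted p = 0.00328 and 0.000785), beside -0.28 and -0.12 in GMP. Their interactions were -1.47 ± 0.45 and -1.53 ± 0.44 (SE, adjusted p = 0.0344 and 0.0266), and both calls ended without any one of WT-LSK replicates 1 and 2, URE-LSK replicate 1, WT-GMP replicate 3 and URE-GMP replicate 2. The first also ended without WT-LSK replicate 3, URE-LSK replicate 2 or URE-GMP replicate 1, and the second without URE-LSK replicate 3, and without WT-GMP replicate 3 the adjusted p were 0.169 and 0.115. At the Slamf1 promoter the genotypes overlapped in LSK, at 0.06 log2.

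Cd48, carried by progenitors that have left the stem cell state, gained signal upstream in URE-LSK. At -4.1 kb (chr1:171677775-171678073), in an intron of A630035G10Rik, the libraries held 1.52, 1.43 and 1.61 CPM in WT-LSK and 5.73, 3.63 and 6.13 CPM in URE-LSK (1.76 ± 0.27 log2, SE, adjusted p = 4.07e-05). WT-GMP was already higher, at 2.51, 4.15 and 4.13 CPM, and URE-GMP stood at 4.46, 4.65 and 7.29 CPM (0.58 ± 0.25 log2, SE, adjusted p = 0.0557). The interaction was -1.18 ± 0.37 (SE, adjusted p = 0.0382), and it held only without URE-LSK replicate 2, WT-GMP replicate 1 or URE-GMP replicate 3, since leaving out any one of the other 9 libraries ended it (adjusted p from 0.0813 to 0.115). At -7.2 kb the mean went from 4.88 ± 0.624 to 10.8 ± 3.42 CPM in LSK (SD, n = 3) and was 3.11 ± 1.38 and 2.49 ± 0.701 CPM in GMP, with log2 fold changes of 1.15 and -0.34.

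Nearer the Cd48 start the difference had the other sign in both cell types. The region at -0.8 kb held 2.83, 3.47 and 2.61 CPM in WT-LSK against 0.999, 0.809 and 1.62 for URE-LSK, then 7.86, 5.67 and 6.18 in WT-GMP against 2.32, 2.62 and 2.35 for URE-GMP. URE was the lower genotype at -1.35 ± 0.25 log2 in LSK (SE, adjusted p = 0.000244) beside -1.42 ± 0.23 in GMP (SE, adjusted p = 6.97e-05), with no overlap. In GMP the intronic region at +5.5 kb was 4.97 ± 0.124 CPM in WT and 2.04 ± 0.195 CPM in URE (SD, n = 3, -1.29 ± 0.18 log2, SE, adjusted p = 1.55e-05), and the region at +7.4 kb was -1.38 (adjusted p = 0.000600) beside -0.13 in LSK. The interactions at -7.2 and +7.4 kb, -1.49 ± 0.42 and -1.24 ± 0.38 (SE, adjusted p = 0.0240 and 0.0331), each ended without any one of 8 libraries. The first held without URE-LSK replicate 2, WT-GMP replicate 1 or 2 or URE-GMP replicate 3 (otherwise adjusted p from 0.0521 to 0.10004), and the second without WT-LSK replicate 3, URE-LSK replicate 3, WT-GMP replicate 1 or URE-GMP replicate 2 (otherwise 0.0595 to 0.0968). The LSK call at -7.2 kb ended without WT-LSK replicate 3 (0.98) or URE-LSK replicate 3 (0.91).

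Cd34, the progenitor sialomucin, had 3 of 10 regions less open in URE-LSK (30.0% against 23.9% of all regions) and 5 less open in URE-GMP (50% against 24.1%). In URE 0 were more open in either cell type (13.6% and 15.6% of all regions). The region at -3.1 kb (chr1:194935545-194935803) held 3.70, 2.65 and 2.96 CPM in WT-LSK against 0.547, 0.614 and 0.427 for URE-LSK, then 2.34, 2.14 and 2.97 in WT-GMP against 1.12, 0.694 and 0.581 for URE-GMP. Every URE library was below every WT library of its cell type, at -2.56 ± 0.29 log2 in LSK (SE, adjusted p = 1.89e-06) beside -1.64 ± 0.28 in GMP (SE, adjusted p = 0.000100). In the introns 2 regions were called in GMP and not in LSK. At +4.8 kb (chr1:194943284-194943933) WT-GMP held 18.4, 18.3 and 25.5 CPM and URE-GMP 8.74, 9.45 and 11.1 CPM (-1.09 ± 0.15 log2, SE, adjusted p = 1.29e-05, and -0.89 without WT-GMP replicate 3), beside -0.23 ± 0.15 in LSK (SE, adjusted p = 0.195).

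The other, at +7.8 kb, held 4.70, 4.32 and 3.04 CPM in WT-LSK against 4.02, 3.80 and 3.52 for URE-LSK, then 4.85, 5.60 and 6.43 in WT-GMP against 2.39, 2.50 and 2.67 for URE-GMP. LSK overlapped and GMP did not, and the interaction was -1.08 ± 0.28 (SE, adjusted p = 0.0134), which was -0.86 without WT-LSK replicate 3 and -0.91 without WT-GMP replicate 3. The region at -10.8 kb was the Cd34 region with the smallest p from LSK to GMP in WT, from 13.4 ± 2.06 to 33.0 ± 3.21 CPM (SD, n = 3, 1.30 ± 0.21 log2, SE, adjusted p = 6.5e-05). Its genotype values were -0.88 in LSK and -0.34 in GMP, and the LSK value passed the fold required for a call without WT-LSK replicate 1 (-1.06) or URE-LSK replicate 3 (-1.26).

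Procr, the protein C receptor by which the most primitive stem cells are enriched, had 2 of 9 regions more open in URE in each cell type and 0 less open. The share more open was 22.2%, against 13.6% of all regions in LSK and 15.6% in GMP. Of all regions 23.9% and 24.1% were less open. With promoter TMM factors or library size only the GMP count was 1 more and 1 less open. At -5.1 kb (chr2:155745745-155746255), between genes, the libraries held 0.918, 0.367 and 0.905 CPM in WT-LSK against 7.07, 4.55 and 5.94 for URE-LSK, then 0.502, 0.231 and 0.415 in WT-GMP against 0.904, 0.729 and 0.727 for URE-GMP. URE-LSK stood 7.68-fold above WT-LSK (2.94 ± 0.31 log2, SE, adjusted p = 8.57e-07), and URE-GMP 2.14-fold above WT-GMP (1.10 ± 0.37 log2, SE, adjusted p = 0.0163). The interaction was -1.84 ± 0.49 (SE, adjusted p = 0.0167, and 0.0548 without WT-GMP replicate 3). The GMP call ended without WT-GMP replicate 2 (0.79, adjusted p = 0.0981) and likewise without URE-GMP replicate 1 (0.98, adjusted p = 0.0544).

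A wide region at -8.1 kb (chr2:155742246-155743738), with a PU.1 match, had the highest level of the Procr regions in LSK. It held 47.1, 36.7 and 50.4 CPM in WT-LSK against 55.7, 55.0 and 41.5 for URE-LSK, then 21.9, 14.4 and 25.8 in WT-GMP against 10.03, 10.2 and 11.8 for URE-GMP. The LSK genotypes overlapped (0.18 log2), GMP was below LSK in both genotypes, and URE-GMP was below WT-GMP at -0.95 ± 0.18 log2 (SE, adjusted p = 0.000299), just short of a call. The interaction was -1.13 ± 0.25 (SE, adjusted p = 0.00624), and -0.95 without WT-LSK replicate 2 and -0.85 without WT-GMP replicate 3, while the GMP value passed the fold required without WT-GMP replicate 2 (-1.16) or URE-GMP replicate 3 (-1.03).

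Downstream of Procr at +20.7 kb the gain was in GMP, with 0.544, 0.797 and 0.369 CPM in WT-GMP against 4.24, 2.55 and 3.59 CPM for URE-GMP (2.58 ± 0.38 log2, SE, adjusted p = 2.93e-05). The LSK libraries held 3 to 14 counts each and overlapped, and the interaction was 2.32 ± 0.70 (SE, adjusted p = 0.0315), which ended without WT-LSK replicate 2, URE-LSK replicate 1, WT-GMP replicate 3 or URE-GMP replicate 1 (adjusted p from 0.0515 to 0.102). At -18.4 kb WT-LSK held 2 to 6 counts and WT-GMP 29 to 92 counts per library (3.97 ± 0.53 log2, SE, adjusted p = 1.37e-05). In LSK its summed counts were 10 in WT and 34 in URE, a ratio of 3.06 (exact 95% interval 1.48 to 6.95), and this call (adjusted p = 0.0389) ended without any one of WT-LSK replicates 1, 2 and 3, URE-LSK replicates 2 and 3, and WT-GMP replicate 1 (adjusted p from 0.0532 to 0.195). The GMP value of 0.69 was 1.02 (adjusted p = 0.0477) without WT-GMP replicate 2. The Procr promoter region itself, which also holds a PU.1 match, had 6.80 ± 0.739 and 5.15 ± 1.32 CPM in LSK (SD, n = 3) and was not called.

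Ly6a (Sca-1) had 3 regions, none within the gene body, and the nearest lay 8.307 kb from its start. Its accessibility at the promoter was therefore not analysed here. The region at +15.5 kb (chr15:74982404-74982616), which lies in an intron of the neighbour Ly6i, held 2.55, 2.16 and 2.35 CPM in WT-LSK against 0.0952, 0.167 and 0.0854 for URE-LSK, then 1.13, 1.28 and 1.68 in WT-GMP against 0.323, 0.486 and 0.412 for URE-GMP. The URE libraries lay below all WT libraries of the same cell type, at -4.35 ± 0.36 log2 in LSK (SE, adjusted p = 6.83e-08) beside -1.74 ± 0.30 in GMP (SE, adjusted p = 0.000116), with an interaction of 2.60 ± 0.49 (SE, adjusted p = 0.00182). With loess offsets the GMP value was -0.61 (adjusted p = 0.0988). The region at +9.0 kb, at the starts of Gm8000 and Gm37042 and with a PU.1 match, stood between 45.4 and 50.3 CPM in all 4 group means. Ly6 genes are near-identical copies in part, and reads shared between copies could be lost or split in counting.

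**Figure D4:**
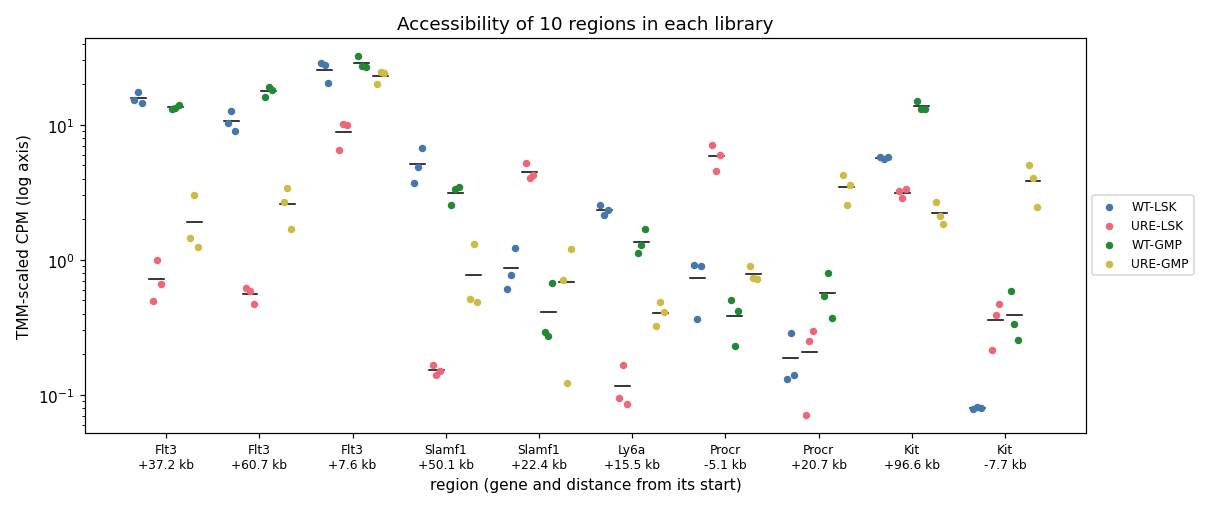
TMM-scaled CPM (y axis, log scale) of 10 named regions (x axis, gene and offset in kb) in each of the 12 libraries, coloured by group, with the group mean as a line. Both WT groups lie above both URE groups at Flt3 +37.2 and +60.7 kb, Slamf1 +50.1 kb and Ly6a +15.5 kb, while Slamf1 +22.4 kb and Procr -5.1 kb are highest in URE-LSK and Procr +20.7 kb and Kit -7.7 kb in URE-GMP.

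The step from LSK to GMP was compared next, within each genotype. In WT, 22 of 78 member regions were called (28.2% against 37.8% of all regions), 15 more open in GMP (19.2% against 21%) and 7 less open (8.97% against 16.8%). The split was 14 and 13 without WT-GMP replicate 3 and 13 and 11 without WT-LSK replicate 2. In URE, 36 were called (46.2% against 49.1%), 18 more open (23.1% against 27.6%) and 18 less open (23.1% against 21.6%). Of the 8 own promoter regions 0 were called in either genotype by edgeR or DESeq2 (13.5% of all promoter regions were in WT and 19.7% in URE, by edgeR), with an unadjusted edgeR p under 0.05 at 1 in WT and 4 in URE, and the main Flt3 promoter had the smallest p in WT, 55.4 CPM in WT-LSK against 37.7 CPM for WT-GMP (-0.55 log2, adjusted p = 0.000767, under the fold required for a call). At Slamf1 1 of 10 regions was called in WT (10% against 37.8% of all regions) and 7 in URE (70% against 49.1%). Of these 7, 2 were more and 5 less open in URE-GMP. The 2 counts come from separate tests, and the interaction was called at 3 of the 10 regions. In WT 9 of the 10 values were already negative, with a median of -0.53 log2. The WT call at Slamf1 +6.2 kb (-1.28 ± 0.44 log2, SE, adjusted p = 0.0193) ended without WT-LSK replicate 3 or WT-GMP replicate 1 or 2 and was -2.15 without WT-GMP replicate 3. The WT call at Cd48 -0.8 kb (1.15 ± 0.23 log2, SE, adjusted p = 0.000561) was 0.96 without WT-LSK replicate 3 and 0.94 without WT-GMP replicate 1.

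**Figure D5:**
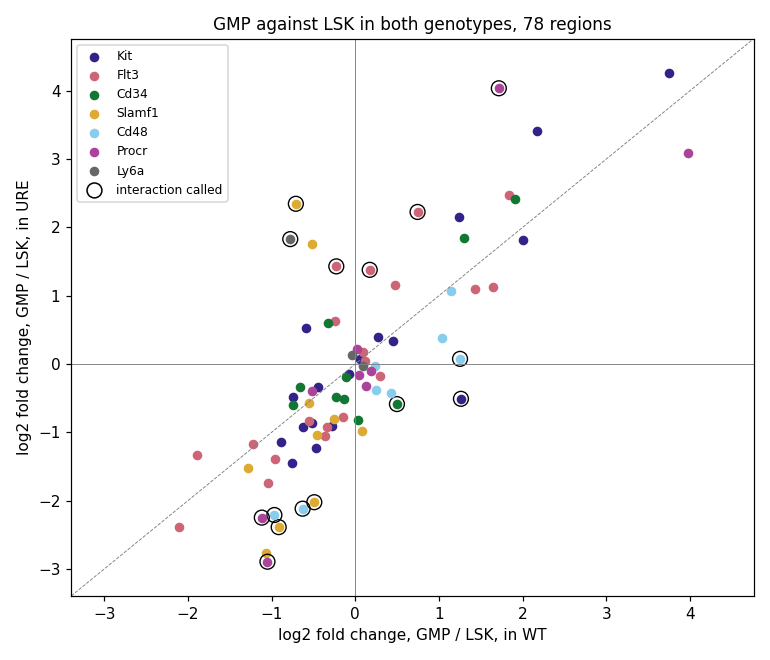
Log2 fold change of GMP over LSK in URE (y axis) against that in WT (x axis) for the 78 regions, coloured by gene, with the line of equal values dashed and regions with a called interaction ringed. Slamf1 +50.1 kb and Ly6a +15.5 kb, both ringed, lie at negative values in WT and at 2.34 and 1.83 in URE.

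The letter strings were counted against the calls. Of the 8 regions with GAGGAAGT, 4 were less open in URE-LSK (Flt3 -10.3, +12.2 and +37.2 kb and Slamf1 +18.9 kb) and 0 more open, with a median of -0.72 on the log2 scale, beside -1.13 over all regions with these letters, of which 51.9% were less open. The other 4, Slamf1 -5.0 kb, Procr -8.1 kb, the Procr promoter and Ly6a +9.0 kb, had LSK values of -0.22, 0.18, -0.40 and 0.15. In GMP 3 of the 8 were less open, beside 47.2% of all regions with these letters. Of the 12 regions with TTGCNNAA, 4 were more and 2 less open in URE-GMP, beside 23.7% and 17.9% of all regions with them. GATA letters stood in 18 regions (23.1% against 15.7% of all regions), 5 of them more and 2 less open in URE-LSK (15.9% and 22.9% of all regions with these letters) and 3 more and 4 less open in URE-GMP (13.6% and 25.8%). RUNX letters stood in 10 (12.8% against 17.3%), 1 of them more and 2 less open in URE-LSK (22.2% and 19.1% of all regions with these letters). In URE-GMP 0 of the 10 were more and 3 less open (19.7% and 20.3%). ETS letters stood in 2 (2.56% against 1.88%), with 0 called in either cell type. Of all regions with ETS letters 5.23% were more and 7.55% less open in LSK, and 7.03% and 7.60% in GMP.

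By position the members resembled the whole table. Introns held 44.9% of them and 44.1% of all regions, and intergenic DNA 28.2% and 32.2%. Their median width was 344 bp against 322 bp, their median GC content 48.6% against 49.8%, and their median level 3.57 CPM against 2.91 CPM. Regions with 50% or more of their bases repeat-masked made up 8 members (10.3%) and 4.93% of all regions. Beside Flt3 -10.3 and +12.2 kb, the named regions among these were Cd48 -4.1 kb (77.9%), Cd48 +7.4 kb (53.5%) and Procr -18.4 kb (55.5%).

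Other genes of the same families and of stem cell surface sorting were read at their promoter regions, which 36 of 41 listed genes had. In LSK 0 were more and 7 less open in URE, and in GMP 1 was more and 7 less open, while all promoter regions were called at 11.5% and 13.0%. The ligand genes Kitl and Flt3l had LSK values of 0.41 and 0.42 on the log2 scale and were not called in either cell type. Csf1r, the receptor of macrophage colony-stimulating factor and a class III kinase like Kit and Flt3, went from 3.83 to 0.174 CPM in LSK (-4.42), and for GMP from 11.4 to 3.18 CPM (-1.82), whereas Pdgfra and Pdgfrb were not called. In the SLAM family Slamf6 fell in both (-4.53 and -4.06), Slamf8 in both (-1.59 and -2.34) and Slamf7 in GMP (-1.38), and Ly9, Cd84, Cd244 and Slamf9 were not called. Slamf9 was lower and just short of the fold required in both (-0.97 and -0.98, adjusted p = 0.000419 and 0.000258).

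Ly6c2 fell in LSK (-1.50) and had 0.34 in GMP, Emcn, a sialomucin, fell in GMP (-1.51), and Il7r, the interleukin-7 receptor, fell in both (-3.81 and -2.76). Tek fell in both as well (-1.71 and -3.55) and Thy1 in LSK (-1.71). Proc, the protein C gene, was the 1 that rose in GMP, from 5.26 to 12.2 CPM (1.22). Among the others, Podxl, Ly6e, F2r, Thbd, Pros1, Esam, Eng, Cd9, Cd27, Cd81, Cd82, Cd93, Itga2b, Itga6, Cxcr4, Prom1 and Alcam were called in neither genotype comparison.

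Markers of other cell types moved with some of these results. The promoter regions of 6 late neutrophil genes summed to 37.7 to 57.6 CPM in WT-GMP and 85.0 to 99.4 CPM in URE-GMP, with 3 of 6 higher by the call, and to 13.1 to 15.6 CPM in WT-LSK and 7.52 to 8.59 CPM in URE-LSK, where Camp (1.53) and Ngp (1.79) rose and S100a8 (-1.47) and Mmp8 (-2.29) fell. Those of 4 monocyte and macrophage genes summed to 52.0 to 69.9 CPM in WT-GMP and 33.0 to 43.4 CPM in URE-GMP, with 2 of 4 lower. Of 4 basophil and mast cell genes 2 had a region, Mcpt8 and Cpa3, and these summed to 7.38 to 11.4 CPM in WT-LSK and 23.8 to 30.6 CPM in URE-LSK, with both higher. In GMP they summed to 9.90 to 13.1 CPM in WT and 24.8 to 34.5 CPM in URE, with Mcpt8 called (1.56) and Cpa3 not (0.66). Kit is itself a mast cell gene. The 4 megakaryocyte genes summed to 59.6 to 81.3 CPM in WT-LSK and 86.4 to 91.4 CPM in URE-LSK. In GMP they summed to 30.2 to 50.6 CPM in WT and 21.6 to 32.8 CPM in URE, where Pf4 was lower (-1.32). Klf1, Epor, Car1 and Hba-a1, and Cd3e, Cd3g and Cd3d had no promoter region among those used here, which left 1 of 5 erythroid and 2 of 5 T cell genes, and none of their regions was called except Lck, higher in URE-GMP (1.39). The part of these cell types in the member results was not tested.

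The promoter regions whose level followed each member promoter most closely over the 12 libraries are given as a description, from 17275 promoter regions with a mean of at least 2 CPM. The 12 libraries fall into 4 groups and share their cell sources, which such a correlation reflects. For Kit they were Dpf3 (Pearson r of log2(CPM + 1) 0.955) and Fam76a (0.952), for Flt3 Camk1d (0.985) and Tnfrsf19 (0.970), and for Cd34 Duoxa1 (0.953) and Gm44981 (0.945). For Slamf1 they were Cacna1c (0.965) and Csf2 (0.952), for Cd48 Bahcc1 (0.887) and Gm13025 (0.886), and for Procr Shcbp1l (0.936) and the shared start of Caskin2 and Tsen54 (0.934).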

How the data were processed

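ATAC-seq (OmniATAC) libraries of 12 samples were analysed, 3 in each of 4 groups set by the genotype and cell type in the labels. Per the study's methods the authors aligned reads to GRCm38 with Bowtie2, removed duplicates and called open regions with Genrich. The submitters' processing notes also name cutadapt, bedtools and featureCounts, without their roles. The authors deposited raw counts per region. Calling was done per group, which can favour regions open in at least 1 group. Whether read ends or fragments were counted is not given in the sources used here.

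The counts were fitted here with edgeR 4.0.16 (R 4.3.3, limma 3.58.1), with 1 coefficient per group, TMM factors, filterByExpr (0 regions removed) and the quasi-likelihood test, two-sided, BH-adjusted over 121336 regions. SE was the absolute log2 fold change over the square root of F, and CPM were TMM-scaled. The 23072701 to 62204826 counts per library make 3 counts equal to 0.0520 to 0.126 CPM. The biological coefficient of variation was 0.185. P-values judge a difference against the spread between these samples, as estimated over the 4 groups and moderated across regions. The fit was also run on simulated data with a fixed spread, where a small share of regions was changed in URE-LSK only, in random directions. The regions changed there were not those with few counts. That run did not cover scaling where many regions change, mostly in the same direction, and its outcome is not given here. Promoter regions lay within 500 bp of a GENCODE M21 start, and member regions within 20 kb of a member gene. Sequences and repeat masking came from RefSeq's GRCm38 genome.

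For each gene the text names the promoter region with the most counts, the called region of smallest p without overlap in each direction of each genotype comparison, and the called region of smallest p from LSK to GMP in WT and in the interaction. Where a region was named by a genotype comparison, the lack of overlap in that cell type was a condition of naming it. It is then no separate result. Other named regions (those with a PU.1 match, Flt3 -0.7 kb, Kit +58.6 kb, Slamf1 +21.6 and +29.2 kb, Cd48 +7.4 kb) were chosen after their values were seen. The members and the lists of genes, markers and motifs were chosen with earlier results of these data known.

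Same-numbered samples were compared by the correlation of their deviations from the group means. It was 0.102, 0.0625 and -0.0616 between the LSK genotypes, 0.0997, 0.205 and 0.349 between the GMP genotypes, 0.181, 0.191 and 0.207 between LSK and GMP in WT, and 0.0616, 0.273 and 0.113 in URE. All 3 passed 0.1 for WT only, and the labels state no shared mouse. Alternatives were other scalings, filters, thresholds, windows of 5 and 50 kb, DESeq2 1.42.0, a replicate block and leaving out each library. Some marker genes of the lists are not reported here.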

Additional observations from a re-analysis of the deposited data

Results flagged for a closer look

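The effect of the URE deletion differed between GMP and LSK at 15 of the 78 regions by edgeR's interaction test (BH-adjusted over all regions), where 14% of all regions did. Values are the log2 fold change of URE over WT in GMP minus that in LSK. Groups of 3 libraries were too small to look for single samples that stand apart.

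It was positive at 6 regions, where URE was lower relative to WT in LSK than in GMP, or higher in GMP. These were Slamf1 +50.1 kb (3.05), Ly6a +15.5 kb (2.60), Procr +20.7 kb (2.32), and 3 Flt3 introns at +37.2 kb (1.66), +60.7 kb (1.48) and +7.6 kb (1.21). At Procr +20.7 kb the gain was called in GMP, and at the other 5 the loss was called in LSK.

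It was negative at 9 regions. The values were -1.77 at Kit +96.6 kb, -1.08 at Cd34 +7.8 kb, -1.47 at Slamf1 +21.6 kb and -1.53 at Slamf1 +29.2 kb. At Cd48 they were -1.49 (-7.2 kb), -1.18 (-4.1 kb) and -1.24 (+7.4 kb), and at Procr -1.84 (-5.1 kb) and -1.13 (-8.1 kb). Monocyte, late neutrophil and basophil or mast cell promoters also differed between genotypes, and their part in these values was not tested.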

How the results depend on the processing

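Of 2417 alternative values for 103 fold changes of single regions, 2178 kept their direction and their side of an adjusted p of 0.05, 136 no longer passed it, 56 newly passed it and 47 turned in sign, and 31 fold changes kept both under every alternative run. Of the 136, 44 came from testing against a fold of 2 (glmTreat). With the fold required as well, a call was lost in 120 and gained in 24 of the 2417. For the counts of called regions, in the order LSK, GMP, WT step, URE step and interaction, glmTreat gave 19, 17, 8, 22 and 3 of the 78. Of all 121336 regions glmTreat called 31424, 32733, 28352, 45592 and 3703. Only regions of at least 2 CPM gave 12, 15, 13 and 20 for the first 4, and regions within 50 kb gave 50, 51, 41, 58 and 24. Of all 77944 regions of at least 2 CPM, 21258, 21858, 22035 and 31545 were called in those first 4. Without a fold threshold the LSK count was 49 and the WT step 37, and within 5 kb the WT step was 13 and the interaction 9. Over all regions the counts without a fold threshold were 68896 in LSK and 71397 in the WT step. Leaving out 1 library gave 26 to 29, 27 to 30, 19 to 27, 32 to 38 and 6 to 15. Smaller sets of regions lower a count by construction and larger sets raise it, and other causes were not tested. The sets of 2 CPM, 5 kb and 50 kb hold other numbers of regions than 78, so their counts are not shares of it.

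With the replicate block the counts were 29, 28, 21, 36 and 16, and no call of a named region was lost. The samples share only a number, except by the correlation check between LSK and GMP in WT.

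Signs turned mostly at small values. The Kit promoter was -0.024 (LSK, loess), -0.34 (LSK, GC offsets, with and without the block) and -0.11 or -0.10 with the block (GMP). Its LSK value with GC offsets passed an adjusted p of 0.05 (0.00474, and 0.00291 with the block), which the main value of 0.20 did not (0.0546). Flt3 +11.4 kb in GMP was 0.028 (RLE factors or DESeq2), 0.053 (GC offsets), 0.047 (GC offsets and block) and -0.14 to 0.059 without 1 library. Cd34 +7.8 kb in LSK was 0.026 with GC offsets and 0.030 with these and the block. In LSK the Slamf1 promoter was -0.066 with library size only, -0.13 with promoter TMM and -0.11 to 0.15 without 1 library, and the Cd48 promoter -0.050, -0.11 and -0.094 to 0.14. Procr -8.1 kb in LSK was -0.0090 with promoter TMM and -0.0063 to 0.30 without 1 library. With loess Flt3 -10.3 kb was 0.19 (LSK, where it had been called) and 0.77 (GMP), Slamf1 +29.2 kb 0.56 (GMP) and Cd48 +7.4 kb 0.51 (LSK). Ly6a +9.0 kb was -0.030 (promoter TMM) and -0.087 (loess) in LSK, and -0.083 (library size), -0.097 (promoter TMM), -0.16 (loess), -0.043 (at least 2 CPM) and -0.049 to 0.18 (without 1 library) in GMP. Without 1 library the ranges were -0.076 to 1.23 for Slamf1 +22.4 kb, -0.58 to 0.11 for Cd48 -7.2 kb, -0.59 to 0.29 for Slamf1 +21.6 kb and -0.32 to 0.24 for Slamf1 +29.2 kb, all in GMP, and -0.15 to 0.67 for Procr +20.7 kb and -0.33 to 0.030 for Cd48 +7.4 kb, both in LSK.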
